A study of Mus musculus with 2 samples.

Results

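Interferon-stimulated genes are the genes that cells switch on when an interferon binds its receptor. The 39 genes described here were chosen by symbol, and all 39 were found among the 31053 genes of the files. They encode sensors of foreign RNA and DNA, transcription factors, antiviral effectors, GTPases and modifiers of the response. The series is a droplet single-cell study of kidney cortex, with transcripts counted as unique molecular identifiers (UMIs). The mice of both groups were 12 weeks old. Mice with podocyte-specific I-PpoI gave 1 library, and wild-type mice gave the other. I-PpoI, a homing endonuclease, cuts at long recognition sites in DNA and leaves double-strand breaks. Podocytes wrap the glomerular capillaries and form part of the filter. The labels give neither the promoter that drives the nuclease, nor the strain, nor the number of mice behind each library, and they name no drug. The endothelial, immune, stromal and tubular cells described here are therefore cells in which the labels do not place the nuclease.

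With 1 library per group, no test between groups could be made and no p-value is given. All intervals are of 95% and cover counting error only, except that the interval of a median describes the spread among the members. The I-PpoI library gave 3949 compared cells (median 6647 UMIs) and the wild-type library 3094 (median 3486.5 UMIs). Mitochondrially encoded genes held a median of 3.31% of the UMIs of I-PpoI cells and 14.3% of those of wild-type cells. The libraries shared 6 barcodes, 3 of them among compared cells. Cells were clustered together with the interferon genes left out, and clusters were named from markers, so each class is called by the cell type that its markers resemble. Levels of single genes are CPM, where 100 CPM equal 1 UMI of the gene in 10000 UMIs of the summed cells of a class. Ratios are I-PpoI over wild-type. A gene counts as measured in a class where its average rate predicts at least 10 UMIs in the smaller class sum. The rate averages both libraries, so a gene that is high in 1 library can pass through that library alone. Counts and medians of measured members depend in part on this limit, while sums over all members do not.

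Type I interferons signal through the Ifnar receptors, the kinases Jak1 and Tyk2 and a complex that contains Stat2 and Irf9 and binds the interferon-stimulated response element in the promoters of its targets. Interferon gamma, the type II interferon of lymphocytes, signals through the Ifngr receptors, and its targets carry the gamma-activated site. Many targets answer to both. In the kidney, interferon responses are known from viral infection and lupus nephritis.

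The promoters of 6 members are shown because they carry the elements through which these genes are known to respond. The sequences are the 160 bases before the RefSeq start of transcription on build GRCm38.p6, written 5′ to 3′ on the gene's own strand, and capitals mark every match on either strand to the response element, searched as GAAA, any 2 bases and GAAA, or to the gamma-activated site, searched as TTCNNNGAA. Overlapping matches form 1 run of capitals.

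Ifit1 (chr19:34640729-34640888, + strand): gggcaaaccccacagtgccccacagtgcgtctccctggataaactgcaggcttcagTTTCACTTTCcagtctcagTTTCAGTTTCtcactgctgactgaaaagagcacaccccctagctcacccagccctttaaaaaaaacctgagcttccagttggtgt

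Ifit3 (chr19:34583369-34583528, + strand): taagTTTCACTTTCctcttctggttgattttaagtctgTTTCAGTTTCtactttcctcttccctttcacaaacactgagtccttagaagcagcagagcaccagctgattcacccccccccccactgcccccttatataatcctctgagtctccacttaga

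Isg15 (chr4:156200819-156200978, - strand): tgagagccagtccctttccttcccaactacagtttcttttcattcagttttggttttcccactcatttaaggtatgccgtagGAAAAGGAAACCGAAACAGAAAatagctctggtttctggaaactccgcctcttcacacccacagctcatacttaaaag

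Rsad2 (chr12:26456453-26456612, - strand): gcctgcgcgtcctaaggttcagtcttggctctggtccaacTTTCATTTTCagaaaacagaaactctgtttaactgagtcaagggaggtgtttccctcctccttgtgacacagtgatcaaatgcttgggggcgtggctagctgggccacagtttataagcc

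Bst2 (chr8:71537473-71537632, - strand): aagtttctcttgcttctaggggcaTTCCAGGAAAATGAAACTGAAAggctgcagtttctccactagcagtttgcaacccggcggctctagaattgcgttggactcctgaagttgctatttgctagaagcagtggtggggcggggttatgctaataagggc

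Irf1 (chr11:53769854-53770013, + strand): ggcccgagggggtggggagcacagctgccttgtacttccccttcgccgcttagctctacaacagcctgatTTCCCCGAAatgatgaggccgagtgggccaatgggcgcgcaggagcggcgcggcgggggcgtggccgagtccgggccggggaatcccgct

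The Ifit1 and Ifit3 windows each hold a pair of separate response elements, the Isg15 window holds 3 that overlap, and the Rsad2 window holds 1. The Bst2 window holds a gamma-activated site that runs into 2 response elements, and the Irf1 window holds a gamma-activated site and no response element. RefSeq also gives a further start of Irf1, whose window of the same length held 0 matches. RefSeq gave a promoter of 250 bases before to 50 bases after the start for 30 of the 39 members. In this window 18 members (60%) held the response element, against 3.99% of all 27025 genes with such a window, and 8 members (26.7%) held the gamma-activated site, against 9.55% of all genes. Overlapping matches were each counted once per gene. A match is a description of the letters and does not show binding. The members lie in part side by side. Ifit2, Ifit3, Ifit3b and Ifit1 follow each other on chromosome 19 between 34550694 and 34650009 (GRCm38), Gbp7, Gbp3 and Gbp2 on chromosome 3 between 142530342 and 142638008, and Rsad2 and Cmpk2 on chromosome 12 between 26442746 and 26479837.

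The endothelium held the highest level of these genes in both libraries. Summed over the 39 members, endothelial-like cells had 47.2 member UMIs per 10000 UMIs in the I-PpoI library (interval 46.3 to 48.1, 356 cells) and 94.0 in the wild-type library (93 to 95.1, 660 cells). Macrophage-like cells had 17.0 (16.8 to 17.2, 1562 cells) in the I-PpoI library and 43.9 (42.4 to 45.4, 170 cells) in the wild-type library. Fibroblast-like cells had 22.2 (21.7 to 22.7) in 229 I-PpoI cells and 41.5 (38.3 to 44.9) in 20 wild-type cells, and T cell-like cells had 12.7 (12.0 to 13.5) in 259 I-PpoI cells and 19.4 (17.5 to 21.4) in 60 wild-type cells. Neutrophil-like cells had 6.92 (6.14 to 7.77) in 179 I-PpoI cells and 46.1 (39.5 to 53.6) in 12 wild-type cells, too few for a comparison.

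The intervals of the libraries overlapped in 2 of the compared classes. Mesangial, mural and renin-like cells had 14.7 (13.7 to 15.8) in the I-PpoI library, against 13.8 (12.7 to 14.9) in the wild-type library. Ifitm3 alone supplied 547 of the 737 member UMIs in I-PpoI and 364 of the 643 in wild-type cells, with a ratio of 1.40 (1.22 to 1.60). The sum in this class therefore says little about the other members. Proximal tubule-like cells were close to empty of these transcripts, with 0.961 (0.677 to 1.33) in 60 I-PpoI cells and 0.797 (0.740 to 0.857) in 1341 wild-type cells. Among these classes, the intervals of neutrophil-like, macrophage-like and fibroblast-like cells overlapped one another in the wild-type library. In the I-PpoI library those of endothelial-like, fibroblast-like, macrophage-like, mesangial, mural and renin-like, T cell-like and neutrophil-like cells did not overlap, in this falling order. Of the remaining classes, thick ascending limb-like cells had 1.12 in I-PpoI, against 0.646 in wild-type cells, B and plasma-like cells 4.69 and 14.3, and the erythroid-like class, which holds barcodes of low depth, 12.0 and 30.9. Distal convoluted, connecting and principal-like cells had 4.93 (4.29 to 5.65) in 16 I-PpoI cells and 3.70 (3.34 to 4.08) in 63 wild-type cells, too few for a comparison. The Lcn2 and Krt19 injured distal epithelium had 5.39 (5.16 to 5.62) in 222 I-PpoI cells and 23.3 (22.0 to 24.7) in 47 wild-type cells, and is described with the epithelium.

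**Figure D1:**
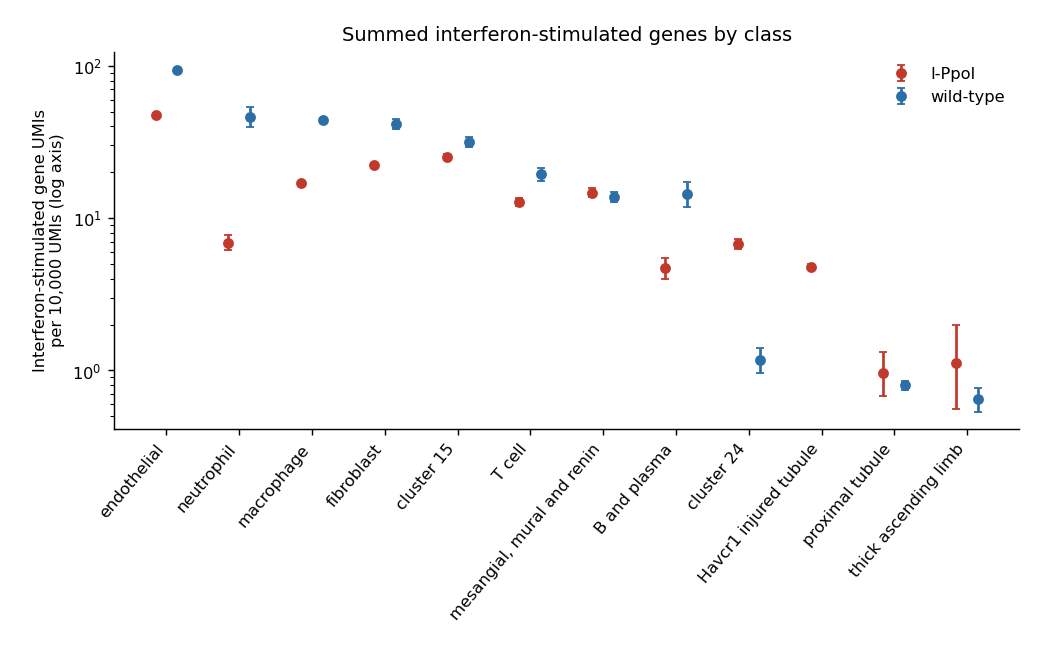
Summed UMIs of the 39 interferon-stimulated genes per 10000 UMIs (log axis) in most classes and in clusters 15 and 24, with the I-PpoI library in red on the left and the wild-type library in blue on the right. Bars are exact Poisson intervals of 95%. The Lcn2 and Krt19 injured distal epithelium, the distal convoluted, connecting and principal-like class and the erythroid-like class are not drawn. Endothelial-like cells are highest in both libraries (47.2 in I-PpoI and 94.0 in wild-type), the proximal tubule is near 1 in both, and the Havcr1 cluster has no wild-type cells.

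In endothelial-like cells, 34 of the 35 measured members were lower in the I-PpoI library, and the counting interval of the ratio lay below 1 for all 34. The median log2 ratio was -1.12 (-1.37 to -0.93), beside -0.03 over all genes measured in the class. In all, 20 members were at least 2-fold lower and none at least 2-fold higher, against a background of 5.59% of the 10085 measured genes lower and 5.69% higher. The members not measured were Oas2, Oas3, Mx1 and Ifi209, with 0 to 17 UMIs in either library.

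The 4 members lowest in the endothelium, ordered by the interval bound nearest to 1, were Ifi27l2a, Ifit1, Bst2 and Cmpk2. Ifi27l2a, which encodes a small interferon-induced membrane protein, had 54 UMIs (23.6 CPM) in I-PpoI endothelium and 529 UMIs (172 CPM) in wild-type endothelium, a ratio of 0.137 (0.102 to 0.182). Ifit1, which binds viral RNA that lacks the host's cap methylation, had 43 UMIs (18.8 CPM) in I-PpoI cells and 367 UMIs (119 CPM) in wild-type cells, a ratio of 0.158 (0.112 to 0.217). Cmpk2, a mitochondrial nucleotide kinase, had 105 UMIs (45.9 CPM) in I-PpoI cells and 678 UMIs (220 CPM) in wild-type cells, a ratio of 0.208 (0.168 to 0.256). Bst2, or tetherin, which holds budding virus at the cell surface, had 435 UMIs (190 CPM) in I-PpoI cells and 2608 UMIs (848 CPM) in wild-type cells, a ratio of 0.224 (0.202 to 0.248). These transcripts were present in both libraries, and their counting intervals in CPM did not overlap.

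By role, the IFIT family, which binds foreign RNA, was lower in 4 of 4 members, with Ifit3 at 68.2 CPM in I-PpoI and 188 CPM in wild-type endothelium (ratio 0.362, 0.301 to 0.433). The OAS family, which senses double-stranded RNA and activates RNase L, had 2 measured members, both at least 2-fold lower, with Oasl2 at 49.8 CPM in I-PpoI and 109 CPM in wild-type cells. Both members of the ubiquitin-like group were lower as well, among them Isg15, which is conjugated to other proteins, at 54.2 and 133 CPM in I-PpoI and wild-type cells (ratio 0.407, 0.330 to 0.499). Of the guanylate-binding and immunity-related GTPases, which attack the vacuoles of intracellular pathogens, 7 of 7 were lower and 4 at least 2-fold, with Gbp7 at 94.9 CPM in I-PpoI and 220 CPM in wild-type cells. All 4 transcription factors were lower, and Irf1 stood at 90.1 CPM in I-PpoI and 165 CPM in wild-type cells (ratio 0.545, 0.461 to 0.641).

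The leading members of the other antiviral effectors and of the sensors differed less. Ifitm3, which blocks the entry of enveloped viruses, had 2050 CPM in I-PpoI and 2530 CPM in wild-type endothelium, a ratio of 0.807 (0.778 to 0.837). Ifi204, a DNA sensor of the PYHIN family, was the 1 measured member not lower, with 48.5 CPM in I-PpoI and 46.5 CPM in wild-type cells (ratio 1.04, 0.808 to 1.35). A further member, singled out after its values were seen, is Rsad2 (viperin, which makes a chain-terminating nucleotide): it had 1588 UMIs (694 CPM) in I-PpoI and 5606 UMIs (1820 CPM) in wild-type endothelium. These were 1588 of its 1970 UMIs in all I-PpoI cells and 5606 of its 5704 UMIs in all wild-type cells. The ratio in the endothelium was 0.381 (0.360 to 0.403), while in macrophage-like cells Rsad2 had 13.1 CPM in I-PpoI and 15.3 CPM in wild-type cells, a ratio of 0.855 (0.477 to 1.68).

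**Figure D2:**
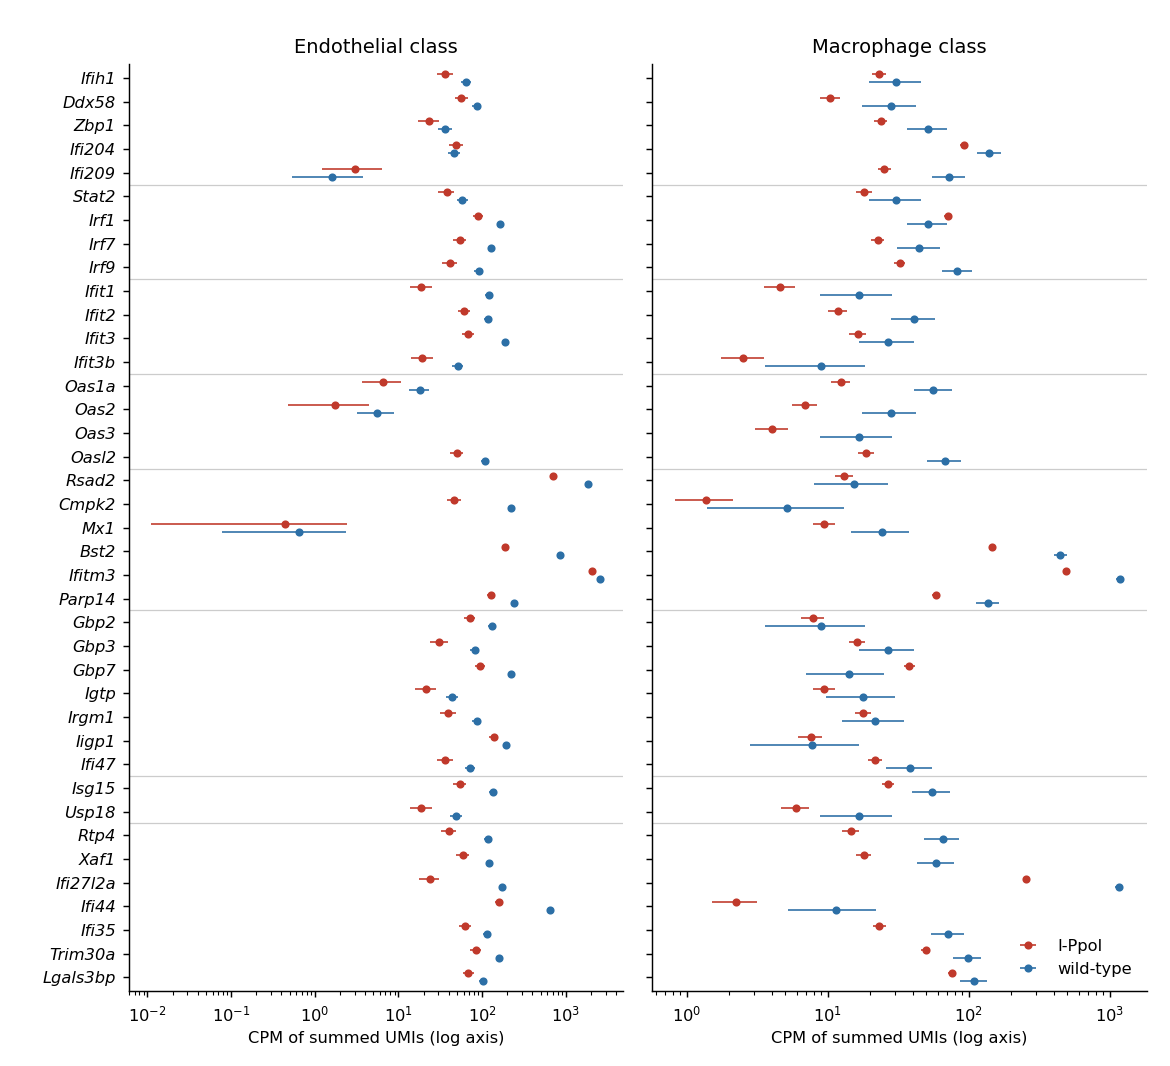
CPM of each of the 39 members (log axis) in endothelial-like cells on the left and macrophage-like cells on the right, ordered by role with grey lines between roles; red points, drawn above, are the I-PpoI library and blue points the wild-type library, with exact Poisson intervals of 95%, and a gene with no UMI has no point. In the endothelium the red points lie left of the blue ones for 34 of 35 measured members, and in macrophages for 29 of 31.

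The member sum was lower in I-PpoI cells in each of the 5 endothelial clusters, with overlapping intervals in cluster 30, and the libraries filled different clusters. Most I-PpoI cells, 265, lay in cluster 4 beside 16 wild-type cells, while clusters 18 and 30 held 414 and 155 wild-type cells and 17 and 1 I-PpoI cells. Member UMIs per 10000 were 51.7 in I-PpoI, against 68.9 in wild-type cells of cluster 4, and 62.9 and 104 in those of cluster 18. In cluster 25 (19 I-PpoI and 9 wild-type cells) they were 24.8 and 81.2, and in cluster 30 they were 74.3 and 79.0, where the 1 I-PpoI cell gave an interval of 44.0 to 117. Cluster 16 was the 1 endothelial cluster that held many cells of both, with 54 I-PpoI and 66 wild-type cells, and there the levels were 35.4 (33.8 to 37.0) and 84.6 (82.2 to 87.0). Of its 32 measured members, 26 were at least 2-fold lower, against a background of 6.78%, and the median log2 ratio was -1.64 (-2.27 to -1.19). Members high in the wild-type cells alone can pass the limit in this cluster. The count and the median therefore depend in part on the limit, while the levels of the sum do not.

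Markers of other cells also differed between the libraries in this class. The 10 endothelial markers were all detected in both, at 116 per 10000 UMIs in I-PpoI, against 151 in wild-type cells. The 10 macrophage markers stood at 2.63 in I-PpoI endothelium (9 detected) and 0.289 in wild-type endothelium (6 detected), and the 9 mesangial and mural markers at 3.28 and 0.257. The 15 proximal tubule markers stood at 0.101 in I-PpoI and 1.98 in wild-type endothelium. The part of these transcripts in the member levels was not tested. Proximal tubule-like cells themselves had under 1 member UMI per 10000 in both libraries.

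In macrophage-like cells, 29 of the 31 measured members were lower in the I-PpoI library, with a median log2 ratio of -1.13 (-1.55 to -0.78) beside -0.07 over all genes. In all, 18 members were at least 2-fold lower, against 5.98% of the 6219 measured genes, and 1 was at least 2-fold higher, against 5.80%. The interval of the ratio lay below 1 for 26 members and above 1 for 2. Ifit2, Oas1a, Oas2, Mx1, Igtp and Ddx58 reached the limit only through the wild-type cells, so these counts and the median depend in part on the limit. The 8 members not measured had 4 to 13 UMIs in the 170 wild-type cells.

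Ifi27l2a was again among the lowest, at 3564 UMIs (256 CPM) in I-PpoI and 912 UMIs (1160 CPM) in wild-type macrophage-like cells, a ratio of 0.220 (0.205 to 0.237). Rtp4, a chaperone of receptor transport that also restricts virus replication, had 14.6 CPM in I-PpoI and 65.1 CPM in wild-type cells, a ratio of 0.224 (0.164 to 0.311). Oas1a, a synthetase of the messenger that activates RNase L, had 12.3 CPM in I-PpoI and 56.2 CPM in wild-type cells, a ratio of 0.219 (0.156 to 0.312). Bst2 had 145 CPM in I-PpoI and 445 CPM in wild-type cells, a ratio of 0.326 (0.291 to 0.366). Oas1a shares 56.1% of the 50-base stretches at its 3′ end with its near copy Oas1g, so its UMIs may be split between these genes.

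The members above 1 were Gbp7 and Irf1. Gbp7 had 526 UMIs (37.8 CPM) in I-PpoI and 11 UMIs (14.0 CPM) in wild-type macrophage-like cells, a ratio of 2.69 (1.49 to 5.43). Irf1, a transcription factor that interferon gamma is known to induce, had 985 UMIs (70.8 CPM) in I-PpoI and 40 UMIs (51.1 CPM) in wild-type cells, a ratio of 1.39 (1.01 to 1.95). The direction of Irf1 turned in the cluster both libraries shared, with a log2 ratio of -0.35, and was -0.20 with at least 500 genes per cell. Gbp7 had too few UMIs to be counted with at least 500 genes per cell, where its log2 ratio was 1.04, and over 10 random draws that thinned each cell to 1000 UMIs it lay between 0.54 and 3.55.

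By role, 3 of 3 measured OAS members were at least 2-fold lower in macrophages, but Oas1a and Oas2 had passed the limit only through the wild-type cells. Summed with no limit, the OAS family had 0.419 UMIs per 10000 in I-PpoI and 1.68 in wild-type macrophages. That ratio of 0.249 (0.206 to 0.303) overlapped the 0.279 (0.262 to 0.296) of the other induced genes. The 5 sensors were all lower and 3 of them at least 2-fold, with Ifi204 at 91.8 CPM in I-PpoI and 139 CPM in wild-type cells (ratio 0.660, 0.543 to 0.810). Ifitm3 was lower here by more than in the endothelium, at 490 CPM in I-PpoI and 1190 CPM in wild-type cells, a ratio of 0.413 (0.386 to 0.443) whose interval does not overlap that of the endothelium. Isg15 stood at 26.7 CPM in I-PpoI and 54.9 CPM in wild-type cells (ratio 0.486, 0.354 to 0.683) and Ifit3 at 16.3 and 26.8 CPM (ratio 0.606, 0.387 to 0.999). None of the 5 measured GTPases was at least 2-fold lower, and 4 of them were lower by less.

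Members that answer mainly to type I interferon and those that answer strongly to interferon gamma were listed apart. Of 11 measured type I-leaning members in macrophage-like cells, none was higher and 9 were at least 2-fold lower, with a median log2 ratio of -1.81 (-2.18 to -0.75). Among the 11, Ifit2, Oas1a, Oas2 and Mx1 passed the limit only through the wild-type cells. The summed UMIs of the type I-leaning list, which need no limit, stood at 4.29 per 10000 in I-PpoI, against 16.6 in wild-type cells, a ratio of 0.258 (0.243 to 0.274). Of 6 measured type II-leaning members, 2 were higher and none was at least 2-fold lower, with a median of -0.55 (-0.97 to 1.37). Their sums were 1.89 in I-PpoI, against 1.86 in wild-type cells, a ratio of 1.01 (0.858 to 1.21). The type II-leaning values moved with the clusters: in cluster 12, which both libraries filled, 1 of 6 was higher and 1 at least 2-fold lower, and the ratio of the sums was 0.829 (0.688 to 1.01), beside 0.310 (0.288 to 0.333) for the type I-leaning list. Irf1 alone supplied 985 of the 2626 type II-leaning UMIs of the I-PpoI macrophage-like cells. Of the type I-leaning UMIs, Ifi27l2a alone held 912 of 1303 among wild-type macrophage-like cells and 3564 of 5969 among I-PpoI ones. The ratio of the type I-leaning sums over this class therefore rests in large part on Ifi27l2a, whose own ratio was 0.220 (0.205 to 0.237). In the endothelium both lists were lower, with medians of -1.40 (14 of 14 lower, 13 at least 2-fold) and -1.0 (8 of 8 lower, 4 at least 2-fold) and ratios of the sums of 0.337 (0.324 to 0.351) and 0.526 (0.491 to 0.562). The difference between the lists was not tested.

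The lower level held in each of the 4 macrophage clusters. Cluster 12 held 662 I-PpoI and 150 wild-type cells, with 17.7 (17.3 to 18.1) and 41.9 (40.3 to 43.4) member UMIs per 10000, and its median log2 ratio was -1.07 (-1.35 to -0.62). There 16 of 31 measured members were at least 2-fold lower, against a background of 6.71%. As members high in the wild-type cells alone can pass the limit, this count and the median depend in part on it, while the levels of the sum do not. Clusters 9, 10 and 13 held 176, 509 and 215 I-PpoI cells and only 4, 7 and 9 wild-type cells. Their levels were 18.2, 17.7 and 14.1 in I-PpoI cells, against 43.2, 39.7 and 73.5 in wild-type cells. Macrophage markers were near even over the class, at 196 per 10000 in I-PpoI, against 213 in wild-type cells, as were monocyte markers at 7.40 and 8.53. The haemoglobin list stood at 10.1 in I-PpoI and 0.408 in wild-type macrophage-like cells, and its part was not tested.

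Of the members measured in both endothelial-like and macrophage-like cells, 25 of 28 were lower in both. In these 28, 15 were at least 2-fold lower in the endothelium and 16 in macrophages, and 9 passed in both, which is 60% of the endothelial list and 56.2% of the macrophage list. With 15 and 16 of only 28 members lower, an overlap of this size is near what these shares alone give, and nothing is read from it. Over all 5764 genes measured in both classes, 187 were at least 2-fold lower in the endothelium and 302 in macrophages. In both, 59 (1.02%) were, which is 31.6% of the endothelial and 19.5% of the macrophage list. As the shares in each class differ so much, these percentages are not comparable with those of the members. All of these comparisons rest on the same pair of libraries.

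**Figure D3:**
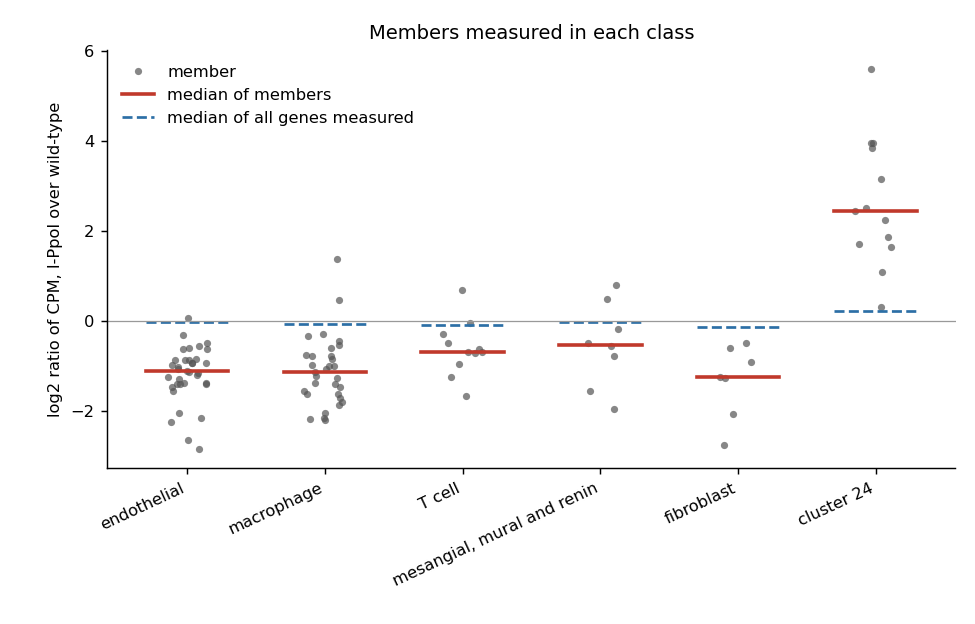
The log2 ratio of CPM, I-PpoI over wild-type, of each measured member (grey points, spread sideways for legibility) in 5 classes and in cluster 24, with the median of the members (red line) and of all measured genes (blue dashed line). The medians of the members are -1.12 in endothelial-like and -1.13 in macrophage-like cells and 2.44 in cluster 24, while those of all genes lie near 0. In cluster 24 some members passed the UMI limit through the I-PpoI cells alone.

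The difference was also seen in the share of cells that held member UMIs. Each cell was thinned to 1000 UMIs, which left out 9 I-PpoI and 7 wild-type endothelial-like cells and 11 I-PpoI and no wild-type macrophage-like cells. In the endothelium, 69.5% (64.3 to 74.3%) of the I-PpoI and 94.3% (92.3 to 96.0%) of the wild-type cells then had at least 3 member UMIs, and the median cell had 4 and 8. In macrophage-like cells the shares were 21.1% (19.1 to 23.3%) in I-PpoI, against 63.5% (55.8 to 70.8%) in wild-type cells, with medians of 1 and 4. At least 5 different members were seen in 16.1% of I-PpoI and 58.8% of wild-type endothelial-like cells, and in 2.84% of I-PpoI and 15.9% of wild-type macrophage-like cells.

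Proximal tubule-like cells were taken as a gauge for free RNA, but they do not measure it in other classes. The macrophage gene C1qa stood at 5.20 CPM (2 UMIs) in I-PpoI proximal tubule-like cells and at 25.4 CPM (58 UMIs) in I-PpoI endothelium. The part of free RNA in the other classes was not tested. At 1000 UMIs, 9.09% of the 44 I-PpoI cells deep enough and 7.32% of the 1093 wild-type cells had any member UMI, and none had 3, which allows shares of up to 8.04% and 0.337%. The median depth before thinning was 2307 UMIs in I-PpoI and 3411 UMIs in wild-type proximal tubule-like cells, against 4506.5 and 3611 in the endothelium and 8089 and 4555.5 in macrophage-like cells. Without thinning, 98.9% of I-PpoI and 99.8% of wild-type endothelial-like cells and 26.7% of I-PpoI and 28.4% of wild-type proximal tubule-like cells had a member UMI.

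**Figure D4:**
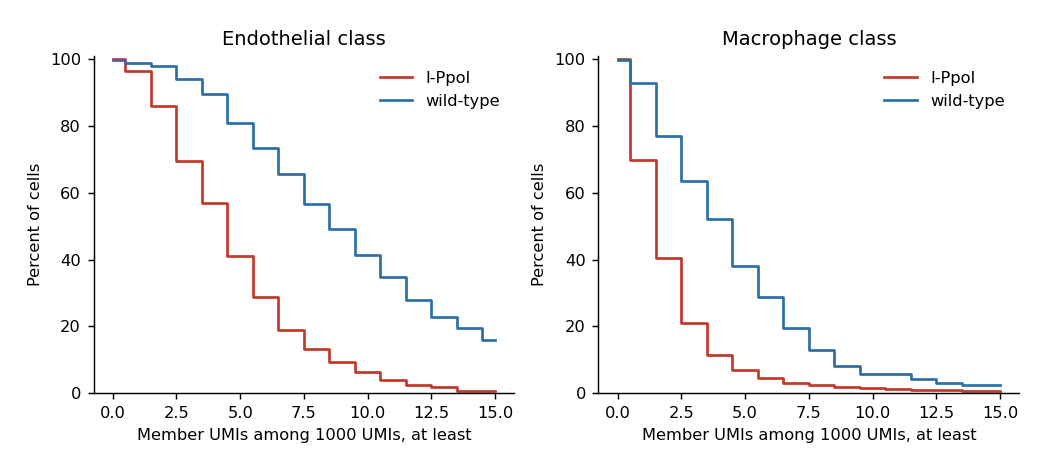
Percent of cells (vertical axis) with at least the given number of member UMIs after thinning each cell to 1000 UMIs (horizontal axis, the last step holds 15 or more), for endothelial-like cells on the left and macrophage-like cells on the right, I-PpoI in red and wild-type in blue. At 3 UMIs the endothelial curves stand at 69.5% in I-PpoI, against 94.3% in wild-type cells, and the macrophage curves at 21.1% and 63.5%.

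Other classes were measured on fewer members. In T cell-like cells, 10 of 11 measured members were lower and 2 at least 2-fold lower, against a background of 6.17%, with a median log2 ratio of -0.68 (-1.24 to -0.05). Bst2, Ifi35, Ddx58 and Zbp1 reached the limit only through the wild-type cells, so these counts and the median depend in part on the limit. Ifi209, a PYHIN family member, had 52.1 CPM in I-PpoI and 164 CPM in wild-type T cell-like cells, a ratio of 0.317 (0.196 to 0.517), and 47.8% of its 3′ stretches are shared with a near copy. Bst2 had 37.5 CPM in I-PpoI and 87.3 CPM in wild-type cells (ratio 0.430, 0.231 to 0.828), and Igtp, a GTPase gene that overlaps Irgm2 on the same strand, had 24.2 and 66.7 CPM and too few UMIs to count as measured. Ifi27l2a had 274 CPM in I-PpoI and 447 CPM in wild-type cells, a ratio of 0.612 (0.476 to 0.794), but over 10 draws that thinned each cell to 1000 UMIs its log2 ratio lay between -0.30 and 0.37, with 6 draws above 0. In the same draws Bst2 lay between -1.94 and 0.68. In this class NK markers stood at 1.97 per 10000 in I-PpoI, against 14.0 in wild-type cells and the haemoglobin list at 0.375 and 290, and their part was not tested.

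In mesangial, mural and renin-like cells (83 I-PpoI and 75 wild-type cells), 6 of 8 measured members were lower and 2 at least 2-fold, against a background of 5.23%, and the median of -0.53 had an interval of -1.96 to 0.80. The members at least 2-fold lower, Ifi27l2a and Irgm1, and also Ddx58 and Parp14, reached the limit only through the wild-type cells. Nothing is read from these counts or the median. Ifi27l2a had 12.0 CPM in I-PpoI and 49.2 CPM in wild-type cells (ratio 0.243, 0.0810 to 0.614), and Irgm1, a GTPase that acts in autophagy, had 16 and 49.2 CPM (ratio 0.324, 0.125 to 0.751). Ifitm3 went the other way, with 547 UMIs (1090 CPM) in I-PpoI and 364 UMIs (779 CPM) in wild-type cells, a ratio of 1.40 (1.22 to 1.60). Over 10 draws thinned to 1000 UMIs the log2 ratio of Irgm1 lay between -3.28 and 0.25, that of Ifi27l2a between -2.43 and 0.63, and that of Ifitm3 between -0.02 and 0.40. Fibroblast-like cells had 7 of 7 measured members lower and 4 at least 2-fold, against a background of 14.0%, with a median of -1.25 (-2.75 to -0.48). Only 20 wild-type cells stand behind that value, and members high in those cells alone can pass the limit. In this class mesangial and mural markers stood at 67.7 per 10000 in I-PpoI fibroblast-like cells and 26.9 in wild-type ones, macrophage markers at 3.30 and 0.686, and monocyte markers at 3.41 and 13.9, and their part was not tested. Among the members, Ifi27l2a had 171 CPM in I-PpoI and 713 CPM in wild-type fibroblast-like cells (ratio 0.240, 0.195 to 0.299), and Ifitm3 had 1200 and 1820 CPM (ratio 0.659, 0.582 to 0.749).

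Epithelial classes and clusters differed among themselves. In proximal tubule-like cells no member reached the limit for a ratio, and the summed members gave 37 UMIs in 384829 in I-PpoI and 720 in 9037216 in wild-type cells, a ratio of 1.21 (0.843 to 1.68). With a mitochondrial limit of 25 percent and clusters rebuilt, the class of this name had a ratio of 3.78 (3.35 to 4.27). So narrow an interval needs more than the 37 I-PpoI UMIs of the main class. The rebuilt class thus held cells from outside the main one, and its ratio is not one of the same cells. The I-PpoI library held a cluster of 378 cells with markers of injured tubule, led by Havcr1, that had no wild-type cell. Set beside the wild-type proximal tubule-like cells, it had 4.79 (4.60 to 4.99) member UMIs per 10000, against 0.797, a ratio of 6.02 (5.53 to 6.55). Of 28 members past the UMI limit, 22 were at least 2-fold higher, where 26.3% of all genes were in this pair of unlike cells. Of the 28, 8 had at most 2 UMIs in the wild-type cells, and others, such as Ifit3 with 6 and Irf1 with 7, also had too few there to reach the limit. All of these passed through the I-PpoI cells alone, so nothing is read from the counts or the median. With a limit of 20 expected UMIs, 14 of 19 were at least 2-fold higher. The median log2 ratio was 3.79 over the 28 members and 3.53 with the 4 members absent from the wild-type cells set at a floor of 3 UMIs.

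In that injured cluster Lgals3bp, a secreted glycoprotein, had 413 UMIs (84.8 CPM), against 71 UMIs (7.86 CPM) in wild-type proximal tubule-like cells, a ratio of 10.8 (8.38 to 14.1). Ifit3 had 92 UMIs (18.9 CPM), against 6 (0.664 CPM), a ratio of 28.5 (12.6 to 79.6). Isg15 had 31 UMIs (6.37 CPM), against 0, which is at least 19.2-fold higher by the floor. These members were chosen after their values were seen. Ifit3 and Isg15 stayed far under the endothelium of the same library, where they had 68.2 and 54.2 CPM. Lgals3bp did not, with 68.7 CPM (58.3 to 80.3) in that endothelium. The macrophage gene C1qa stood at 24.2 CPM in the injured cluster and at 6080 CPM in the macrophage-like cells of the same library, and the endothelial gene Plvap at 0.821 and 2340 CPM in the injured cluster and the endothelium. The part of free RNA in these values was not tested.

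In cluster 24 the members stood higher in I-PpoI cells. It held 46 I-PpoI and 56 wild-type cells and stayed unnamed, since genes of intercalated and principal cells of the collecting duct, Atp6v1g3 and Aqp2 among them, stood beside those of injured distal epithelium. Summed over all 39 members, it had 6.80 (6.30 to 7.32) UMIs per 10000 in I-PpoI, against 1.17 (0.967 to 1.40) in wild-type cells, a ratio of 5.82 (4.79 to 7.14) that does not depend on a UMI limit. The 13 members past the limit were all higher and 12 at least 2-fold, where 11.8% of all genes were, with a median log2 ratio of 2.44 (1.64 to 3.96), beside 0.22 over all genes. Of the 13, 3 had at most 2 wild-type UMIs, and others, such as Ifitm3, also had too few there to reach the limit. All of these passed through the I-PpoI cells alone, so nothing is read from these counts or the median. With no limit but 1 UMI, 30 of 34 members were at least 2-fold higher and 3 at least 2-fold lower, and with 20 expected UMIs 5 of 6 were at least 2-fold higher. Other distal cells differed less in the member sum. Distal convoluted, connecting and principal-like cells had 4.93 in I-PpoI, against 3.70 in wild-type cells. Cluster 3, also unnamed and led by Slc12a3, had 0.811 (0.371 to 1.54) and 0.897 (0.675 to 1.17).

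Bst2 had 62 UMIs (60.6 CPM) in I-PpoI and 11 UMIs (10.8 CPM) in wild-type cells of cluster 24, a ratio of 5.61 (2.93 to 11.8). Irf1 had 60 and 10 UMIs in I-PpoI and wild-type cells (ratio 5.98, 3.04 to 13.1), Ifitm3 had 86 and 5 (ratio 17.1, 7.06 to 54.1), and Rsad2 had 24 and 0, at least 7.97-fold higher by the floor. These were chosen after their values were seen. The makeup of the cluster differed between the libraries: markers of Lcn2 and Krt19 injured epithelium stood at 91.7 per 10000 in I-PpoI, against 20.1 in wild-type cells, those of distal convoluted, connecting and principal cells at 34.5 and 69.4, and those of intercalated cells at 54.4 and 72.7. Macrophage markers stood at 3.20 in I-PpoI, against 0.490 in wild-type cells, with C1qa at 66.4 and 5.89 CPM, and the part of these values was not tested.

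In the Lcn2 and Krt19 injured distal epithelium the summed members went the other way. Of 14 measured, 11 were lower and 9 at least 2-fold, against a background of 15.7%, and 2 were at least 2-fold higher, against 7.38%. Among the 14, Ifit2, Ifit3b, Cmpk2 and Iigp1 reached the limit only through the wild-type cells, and Ifitm3 only through the I-PpoI cells. Nothing is read from these counts or from the median, while the ratio of the sums does not depend on the limit. The median log2 ratio was -2.53 (-4.72 to 0.95), beside -0.26 over all genes, and the ratio of the sums 0.231 (0.215 to 0.249). The IFIT genes held much of it: Ifit3 had 154 UMIs (39.9 CPM) in I-PpoI and 536 UMIs (1060 CPM) in wild-type cells, a ratio of 0.0377 (0.0313 to 0.0452), and Ifit2 had 41 UMIs (10.6 CPM) and 143 UMIs (282 CPM) in I-PpoI and wild-type cells. The Ifit3 UMIs lay in 23 of the 222 I-PpoI and 29 of the 47 wild-type cells, with 42.2% and 16.8% of them in the highest cell. Iigp1 had 7 UMIs in 3 I-PpoI cells and 37 UMIs in a single wild-type cell. Ifitm3 was higher, with 375 UMIs (97.0 CPM) in I-PpoI and 1 UMI (1.97 CPM) in wild-type cells, a ratio of 49.3 (8.79 to 1950). These members were chosen after their values were seen. The cells compared are unlike: the 8 markers that name the class stood at 173 per 10000 in I-PpoI (8 detected) and 5.32 in wild-type cells (7 detected), and those of the thick ascending limb at 50.4 and 6.91, and their part was not tested.

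Genes of the pathway that are not members were listed by their place in it. Of 21 interferon ligand genes listed, Ifng, which encodes interferon gamma, was the only one above a few UMIs. It had 102 UMIs (123 CPM) in I-PpoI and 36 UMIs (185 CPM) in wild-type T cell-like cells, a ratio of 0.668 (0.453 to 1.01), and 2 further UMIs in the other cells of the I-PpoI library, 1 of them in macrophage-like cells. Ifnb1, the gene of interferon beta, had 2 UMIs in I-PpoI macrophage-like cells and none elsewhere. Type I ligand transcripts were thus hardly detected at this depth, which says nothing about the proteins or about their sources outside the cortex.

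The receptor genes moved less than the members. In the endothelium 5 of 6 receptor genes were measured, 4 of them lower, and only Il10rb was at least 2-fold lower, at 152 CPM in I-PpoI and 346 CPM in wild-type cells. Ifnar2 had 143 CPM in I-PpoI and 234 CPM in wild-type endothelium (ratio 0.609, 0.533 to 0.695), while Ifngr1 had 206 and 153 CPM (ratio 1.35, 1.18 to 1.53). In macrophage-like cells none of 5 receptor genes differed by 2-fold, and Ifngr1 had 387 CPM in I-PpoI and 407 CPM in wild-type cells (ratio 0.950, 0.849 to 1.07).

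The kinase gene Jak1 had a ratio of 1.09 (0.973 to 1.22) in the endothelium and 0.974 (0.808 to 1.18) in macrophage-like cells. Of the genes that sense nucleic acids upstream of interferon, 6 of 9 measured were higher in the endothelium, and Tmem173, which encodes STING, the adaptor of the cytosolic DNA sensor, was the 1 at least 2-fold higher. It had 85 UMIs (37.2 CPM) in I-PpoI and 34 UMIs (11 CPM) in wild-type endothelium, a ratio of 3.36 (2.24 to 5.17), and a ratio of 0.877 (0.665 to 1.18) in macrophage-like cells.

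Among the negative regulators, Socs3, an inhibitor of cytokine receptor signalling that is best known to act on the IL-6 family, stood apart. It had 948 UMIs (415 CPM) in I-PpoI and 76 UMIs (24.7 CPM) in wild-type endothelium, a ratio of 16.8 (13.3 to 21.5). In macrophage-like cells it had 5601 UMIs (403 CPM) in I-PpoI and 17 UMIs (21.7 CPM) in wild-type cells, a ratio of 18.6 (11.6 to 31.9), and in mesangial, mural and renin-like cells 138 and 8.56 CPM (ratio 16.1, 6.0 to 60.7). The other 4 measured regulators in the endothelium lay within 2-fold, with Socs1 at 16.2 CPM in I-PpoI and 19.2 CPM in wild-type cells. The pathway genes named here were picked after their values were seen, apart from the ligands.

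Over whole libraries the picture depended on which cells each held. Summed over all compared cells, the members gave 15.2 UMIs per 10000 in I-PpoI, against 19.7 in wild-type cells, and the median log2 ratio over the 39 members was -0.22 (-0.55 to 0.02). In such a sum, fewer cells of a type and less RNA per cell cannot be told apart. Of the members, 3 were at least 2-fold higher and 6 at least 2-fold lower, against backgrounds of 17.0% and 14.3% of all genes. Over the 13 classes and clusters with at least 20 cells in each library, the ratio of summed members was 0.855, and it was 0.536 when each was given the weight it had in the wild-type library. Without the Lcn2 and Krt19 class these ratios were 0.954 and 0.546. In the first count over the 13, 17 members had ratios above 1 and in the second 1 did, Lgals3bp at 1.10. Ifi27l2a moved to 0.213 at wild-type weights, against 1.65 without them, and Mx1, a dynamin-like GTPase that blocks influenza virus, moved to 0.496, against 2.86.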

How the data were processed

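The files the authors deposited hold raw UMI counts, one for each gene in each barcode, from Cell Ranger with an mm10 reference, per the labels' protocols, which name version 3.1; the file headers name version 6.0.2, and which made the counts is not settled. Seurat version 3 is also named there, although the files hold unnormalized counts. Both libraries used the 3′ kit of version 3.1.

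Cells with at least 200 genes and at most 50% mitochondrial UMIs were kept. Scrublet's automatic threshold marked 30 I-PpoI and 5 wild-type barcodes, so the top 4% of scores per library was left out (142 and 123). Free RNA was not removed. Cells were clustered without integration (scanpy 1.11.5, 10000 counts per cell, 2000 variable genes without any listed interferon gene, 30 components, 15 neighbours, Leiden resolution 1). A marker counted at 25 CPM and 4-fold over the median cluster (10 CPM added), and a name needed 3. Of 32 clusters, 5 stayed unnamed. These naming thresholds, the rules for haemoglobin and cell cycle clusters, and the thinning were set with the data known.

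Raw UMIs were summed per library and class. Log2 ratios had 0.5 counts added, called means at least 2-fold, and 5 classes with at least 50 cells in each library were compared, others with at least 20 described. Intervals are exact: Poisson for levels, conditional binomial for ratios, Clopper-Pearson for shares, and order-statistic for medians. UMIs are not independent of the cell they come from, so all cover counting error only. The named members were, per class, up to 6 highest and 4 lowest by the interval bound nearest to 1, with at least 20 UMIs, and the member with the most UMIs in each of 8 role groups. Members and lists were chosen with earlier results of these data known. Coordinates come from GENCODE release M21, which matched 31011 of 31053 gene identifiers (99.9%), and promoters from RefSeq. The steps recovered known changes in 200 genes of simulated counts. UMIs of a 3′ assay are not scaled by gene length, and levels are not compared between genes. Strand use in counting is not given in the sources used here, so members that overlap a gene on either strand (Irf7 with Phrf1, Irf9 with Rnf31, Igtp with Irgm2, Ifi47 with Olfr56) may hold some of its reads. Results on 1 gene of the pathway are not reported here.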

Additional observations from a re-analysis of the deposited data

Results flagged for a closer look

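The members moved in opposite directions in different cells under the same contrast of I-PpoI over wild-type. The median log2 ratio was -1.12 in endothelial-like cells, where 34 of 35 measured members were lower, and -1.13 in macrophage-like cells, where 29 of 31 were lower. In cluster 24, an unnamed cluster of distal epithelium, it was 2.44 over the 13 members past the UMI limit, 3 of which had at most 2 UMIs in wild-type cells. Some of the 13 passed through the I-PpoI cells alone, so nothing is read from that median. Summed over all members, with no limit, cluster 24 had 6.80 (6.30 to 7.32) UMIs per 10000 in I-PpoI, against 1.17 (0.967 to 1.40) in wild-type cells. With 1 library per group this difference between cells was not tested. The 46 I-PpoI and 56 wild-type cells of cluster 24 also differed in markers of injured epithelium, at 91.7 per 10000 UMIs in I-PpoI, against 20.1 in wild-type cells.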

How the results depend on the processing

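No paired analysis was possible because each group is 1 library. Of 270 values of the main comparisons under the alternatives, 240 stayed within the main interval or within 1.5 times the main count, and 30 moved. Medians of the log2 ratio ranged from -1.64 to -1.07 in endothelial-like, -1.56 to -0.98 in macrophage-like, -0.92 to -0.58 in T cell-like and -0.66 to -0.19 in mesangial, mural and renin-like cells, from 2.16 to 2.48 in cluster 24, from 2.37 to 4.38 for the Havcr1 cluster and from -0.69 to -0.22 over all cells. At a mitochondrial limit of 25 percent the median over all cells was -0.69, with 1 member at least 2-fold higher and 13 lower. The proximal tubule sum ratio was then 3.78, in a rebuilt class that also held cells from outside the main one. With at least 500 genes per cell the macrophage median was -1.56 with 0 members higher, Irf1 in macrophages reversed to -0.20, and the Havcr1 cluster had a median of 2.37 with 13 members higher. Without doublet removal the mesangial, mural and renin-like class had 4 members lower. At 20 expected UMIs the count lower was 1 in T cell-like and 0 in mesangial, mural and renin-like cells, and the count higher was 5 in cluster 24 and 14 in the Havcr1 cluster, since fewer genes were measured. With no limit but 1 UMI, 2 were higher and 13 lower in T cell-like, 2 and 12 in mesangial, mural and renin-like cells, and 30 and 3 in cluster 24. In shared clusters only, the endothelial median was -1.64 and Irf1 in macrophages reversed to -0.35; the proximal tubule had no such cluster. With cells thinned to 1000 UMIs the median over all cells was -0.60 (1 higher, 12 lower), macrophages had 0 higher and 4 lower of 9 measured, and Ifi27l2a in T cell-like cells reversed to 0.16 and Irgm1 in mesangial, mural and renin-like cells to 0.25. These are of 1 random draw; over 10 draws, added after the data were seen, the endothelial median lay between -1.18 and -0.92 and the macrophage median between -1.55 and -0.98, while T cell-like and mesangial, mural and renin-like cells were left with too few measured members for a median. Macrophage Irf1 lay between -0.13 and 1.10. Thinned to 2000 UMIs, the shares of cells with 3 member UMIs were 93.3% in I-PpoI and 99.7% in wild-type endothelium and 47.5% and 88.1% in macrophages. Where a cause is not given, it was not tested. Cluster 24 has no value where clusters were rebuilt or doublets put back. Depth limits the wild-type sums of T cell-like (194785 UMIs) and fibroblast-like cells (145777 UMIs) and the I-PpoI sum of the proximal tubule (384829 UMIs). Without the Lcn2 and Krt19 class, an alternative added after the data were seen, the ratio of summed members at wild-type weights was 0.546.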
